A study of Mus musculus with 12 samples.

Results

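The 29 genes described here encode the enzymes that build cholesterol from acetyl-CoA, the proteins that sense sterols and process the transcription factor SREBP2, and 4 proteins that move, esterify or limit the uptake of sterols. They were chosen by name, with earlier results of these data known. Each of the 29 names occurred on 1 row of both count tables, among 20093 genes present in both. Bulk RNA-seq counts came from 12 whole livers of males, with 3 livers per group and 4 groups: WT and HuRHep-/- mice on normal chow, and WT and HuRHep-/- mice fed a high fat, cholesterol and fructose diet (HFCF) for 16 weeks. The HFCF diet drew 40% of its energy from fat and 20% from fructose and held 2% cholesterol. Per the labels, all animals were C57BL/6N with both Elavl1 alleles floxed and were 4 to 6 months old when injected. Those of the HuRHep-/- groups received AAV8-Tbg-Cre, a virus that expresses Cre from the thyroxine-binding globulin promoter of hepatocytes, and WT controls received AAV8-Tbg-null. The study's methods give instead a cross with albumin-Cre mice and a younger age, and the counts do not show which applies. Both promoters drive Cre in hepatocytes, so that whole liver also holds cells in which Elavl1, the gene of the RNA-binding protein HuR, is not targeted.

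Cholesterol synthesis starts with the joining of acetyl-CoA units, runs through mevalonate and isoprenoid diphosphates to squalene, and ends with the trimming of lanosterol. The pathway is known for its feedback control: when sterols in the endoplasmic reticulum are low, Scap escorts SREBP2 to the Golgi, where proteases release its active domain to switch on the genes of the pathway. When sterols are plentiful, Insig proteins hold Scap back, so that cholesterol in the diet is a classical repressor of these genes in liver.

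Promoter sequences bear on this group because SREBP2 acts through sterol regulatory elements together with the factor NF-Y, which binds the box CCAAT. The RefSeq promoter table (GRCm38.p6, 250 bases before to 50 after each gene start) held entries for 24 of the 29 genes, with 30 promoters in all, and none for Fdps, Fdft1, Soat2, Sqle and Stard4. The box CCAAT, searched on both strands, was present in a promoter of 20 of these 24 genes. It was in 66.7% of their promoters, against 37.4% of all 32851 promoters in the table. Aacs, Acat2, Mbtps1 and Scap held none. Ebp, Ggps1, Insig2, Lss, Mvd, Mylip, Sc5d and Srebf2 held the box but did not pass the diet comparison below in either genotype. Scap, without the box, fell in livers labelled HuRHep-/-. A link of the box with the diet response was not tested. The exact letters TCACNCCAC of a classical sterol regulatory element, also searched on both strands, were found in 1 of the 24 genes, Hmgcs1, and in 1.24% of all promoters; functional elements are degenerate, so that this search covers a single spelling. The 150 bases before the start are given here for 5 enzymes of the pathway that hold a CCAAT box, and for Aacs and Acat2, enzymes that feed the pathway and hold none. Each is written 5′ to 3′ on the strand of the gene, and capitals mark CCAAT (or ATTGG, its complement) and, in Hmgcs1, the sterol regulatory element. The windows lie at chr13:119690201-119690350 (+, Hmgcs1), chr13:8885456-8885605 (+, Idi1), chr5:4104698-4104847 (-, Cyp51), chrX:72918371-72918520 (+, Nsdhl), chr19:6067851-6068000 (-, Tm7sf2), chr5:125475723-125475872 (+, Aacs) and chr17:12960726-12960875 (-, Acat2).
Hmgcs1: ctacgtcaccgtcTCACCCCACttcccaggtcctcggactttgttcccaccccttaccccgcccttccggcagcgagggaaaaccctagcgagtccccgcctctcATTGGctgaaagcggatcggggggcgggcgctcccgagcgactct
Idi1: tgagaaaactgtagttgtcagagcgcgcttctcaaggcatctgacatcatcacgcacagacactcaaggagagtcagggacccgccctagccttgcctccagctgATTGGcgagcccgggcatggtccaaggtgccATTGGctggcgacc
Cyp51: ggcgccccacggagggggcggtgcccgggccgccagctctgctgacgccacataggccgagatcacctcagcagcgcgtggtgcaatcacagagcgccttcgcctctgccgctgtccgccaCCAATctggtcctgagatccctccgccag
Nsdhl: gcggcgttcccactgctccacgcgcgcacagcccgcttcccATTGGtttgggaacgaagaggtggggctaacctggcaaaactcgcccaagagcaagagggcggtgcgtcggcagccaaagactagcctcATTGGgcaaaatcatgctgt
Tm7sf2: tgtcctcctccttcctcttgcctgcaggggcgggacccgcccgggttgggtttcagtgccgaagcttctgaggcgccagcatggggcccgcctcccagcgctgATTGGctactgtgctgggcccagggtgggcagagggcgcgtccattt
Aacs: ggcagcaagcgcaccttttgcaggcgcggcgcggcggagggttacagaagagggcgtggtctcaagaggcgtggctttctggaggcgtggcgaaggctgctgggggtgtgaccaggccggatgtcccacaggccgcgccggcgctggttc
Acat2: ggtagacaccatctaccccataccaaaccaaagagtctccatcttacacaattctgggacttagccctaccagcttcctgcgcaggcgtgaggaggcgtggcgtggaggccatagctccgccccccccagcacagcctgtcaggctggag

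Before the genes themselves, the labels and libraries were checked. Library totals ran from 30071731 to 35949203 reads assigned to genes. Elavl1 was not lower in the livers labelled HuRHep-/-: its normalised CPM (counts as parts of 1000000 of the scaled library total) were 30.9, 29.3 and 30.99 in chow WT and 42.8, 39.2 and 38.8 in chow HuRHep-/-, and 23.9, 24.2 and 26.97 in HFCF WT and 32.4, 32.2 and 34.2 in HFCF HuRHep-/-. The log2 difference was 0.41 on chow and 0.38 on HFCF (limma adjusted p = 0.0220 and 0.0327). This is opposite in direction to a loss of the transcript, and the count covers the whole gene and not the floxed exon alone, so that genotype is named below as the label of the library, and every genotype direction rests on it. The 2 diets lie in separate tables, so that diet and table cannot be told apart. A feeding time, 16 weeks, was recorded here for the HFCF livers alone. Any difference in age at collection can therefore not be told apart from diet either. Hepatocyte markers (Alb, Ttr, Tat, Cps1, Serpina1c), with 0 of 5 at 0, summed to 84728 to 104845 CPM in chow WT, 66607 to 74604 in chow HuRHep-/-, 57751 to 65964 in HFCF WT and 53157 to 56310 in HFCF HuRHep-/-. In bulk tissue, fewer cells of a type and less RNA per cell cannot be told apart.

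Levels were compared between genes per kilobase of annotated exons, pooled over all transcripts of a gene. In chow WT livers, the highest was Ebp (119 CPM per kb), which shifts the double bond of the sterol ring, followed by Sc5d (58.2), which introduces a double bond, Insig1 (55.9), the Scap anchor, and Fdps (55.5), which makes farnesyl diphosphate. Lss (2.52), Mylip (1.79) and Ggps1 (0.765) were the lowest of the 28 expressed genes by this measure. For Lss the pooled length was 10787 bases, and its level without this scaling was 27.2 CPM. Npc1l1, the intestinal cholesterol transporter that mouse liver is known to lack, had 0 to 2 reads in each library. A count of 0 allows up to 0.0835 to 0.0998 CPM in these libraries (3 counts, counting error only), so that Npc1l1 was not detectable at this depth and was not tested. The other 28 genes were tested in each comparison. Sequence shared with other genes limits some of them. Of Acat2, 50.5% of the 31-base words occur in transcripts of other genes, most of them in Acat3. The share was 22.1% for Idi1, 16.5% for Fdft1, 13.6% for Fdps and 12.2% for Ggps1. Annotated genes on the same strand overlap 26.7% of the exon bases of Fdps and 12.1% of those of Tm7sf2.

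The comparison of diets asked how far the pathway was lowered after HFCF feeding within each genotype label. In WT livers, 9 of the 28 tested genes were lower and 0 were higher by the limits used throughout, a limma adjusted p of at most 0.05 (Benjamini-Hochberg over all genes tested) and a fold change of at least 1.5. Of all 14535 genes tested, 3.28% were lower and 6.64% higher by the same limits. The higher genes numbered 965, and 560 without HFCF WT replicate 3 or 580 without chow WT replicate 1. In livers labelled HuRHep-/-, 16 of 28 were lower and 0 higher, beside 4.97% and 14.7% of all genes. The 9 genes lowered in WT livers, Pmvk, Idi1, Fdps, Sqle, Cyp51, Tm7sf2, Msmo1, Nsdhl and Stard4, were also lowered in livers labelled HuRHep-/-. By adjusted p alone, 13 and 21 genes were lower, against 12.9% and 19.1% of all genes. All HFCF livers lay below all chow livers for 13 genes in WT and 22 in livers labelled HuRHep-/-, against 19.8% and 27.1% of all genes. The median log2 fold change of the 28 genes was -0.50 in WT and -0.92 in HuRHep-/-, against 0.01 and 0.00 over all genes tested.

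**Figure D1:**
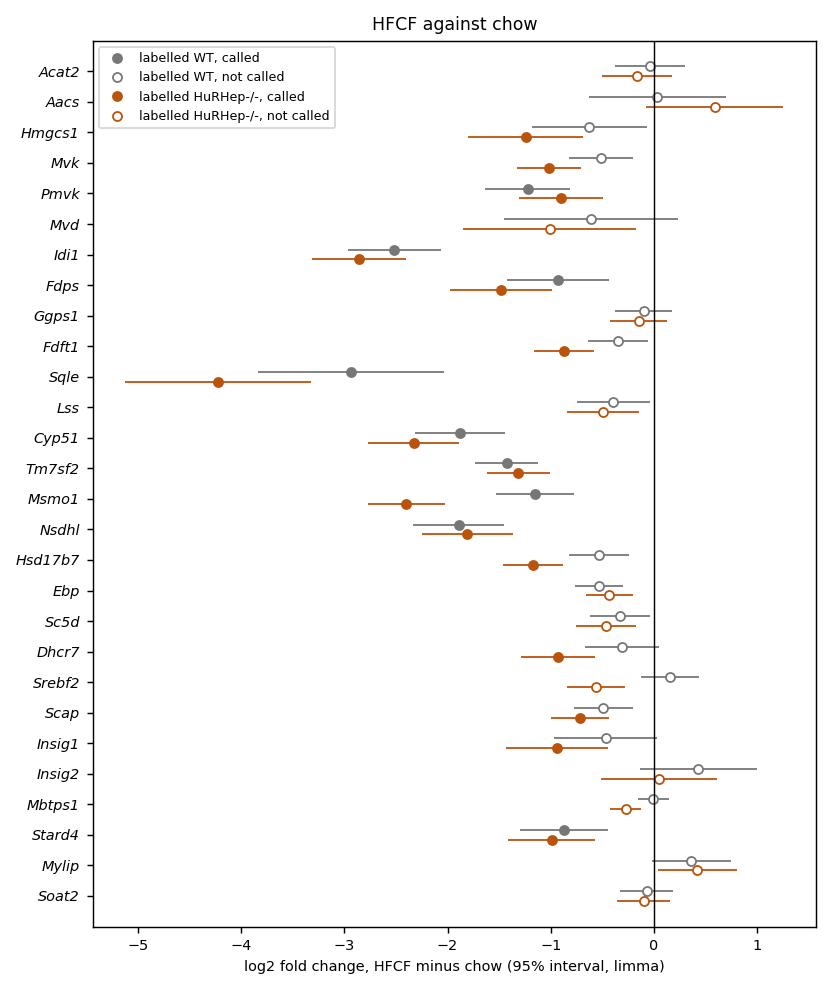
Log2 fold change between HFCF and chow livers (x axis, HFCF minus chow) of the 28 tested genes (y axis, ordered by role) in livers labelled WT (grey) and HuRHep-/- (orange), with 95% intervals from limma; filled points passed both limits. Sqle and Idi1 lie farthest to the left in both, and 22 of the 28 orange points lie left of their grey partners.

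Of the 9 genes from acetyl-CoA to the isoprenoid diphosphates, 3 fell in WT livers and 5 in livers labelled HuRHep-/-. Idi1, the isomerase that makes dimethylallyl diphosphate, was at 87.3, 131 and 118 CPM in chow WT and at 26.3, 15.9 and 17.3 in HFCF WT. It was at 136, 129 and 112 in chow HuRHep-/- and at 19.4, 19.8 and 13.5 in HFCF HuRHep-/-. The groups were far apart in both cases. By the fit Idi1 was 5.72-fold lower in WT (log2 -2.52, SE 0.21, limma adjusted p = 7.29e-05) and 7.24-fold lower in HuRHep-/- (log2 -2.85, SE 0.21, limma adjusted p = 2.84e-05). Fdps was at 167, 245 and 288 CPM in chow WT and at 147, 114 and 103 in HFCF WT, 1.90-fold lower (limma adjusted p = 0.0135). This call was lost without chow WT replicate 3 (log2 -0.76, limma adjusted p = 0.0556) and without HFCF WT replicate 3 (-0.82, 0.0534). Fdps fell from 257, 219.8 and 212 CPM to 94.5, 99.2 and 58.1 in livers labelled HuRHep-/-, or 2.80-fold. Pmvk, which phosphorylates mevalonate phosphate, was 2.33-fold lower in WT and 1.87-fold lower in HuRHep-/-.

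Hmgcs1, the synthase that condenses acetyl-CoA with acetoacetyl-CoA, was at 87.7, 107 and 114 CPM in chow WT and at 96.1, 50.6 and 60.1 in HFCF WT. HFCF WT replicate 1 lay within the chow range, and the difference did not pass (log2 -0.63, 95% interval -1.19 to -0.07, limma adjusted p = 0.0953). Without that library it did (-0.89, limma adjusted p = 0.0287). In livers labelled HuRHep-/- it fell from 169, 154 and 98.6 CPM to 72.1, 59.6 and 45.0, with no overlap, by 2.37-fold. Mvk, mevalonate kinase, fell 2.03-fold in livers labelled HuRHep-/-, and was 1.42-fold lower in WT, short of the fold limit (limma adjusted p = 0.0239); without chow WT replicate 1 it passed (log2 -0.63). Mvd, the decarboxylase, was 2.02-fold lower in HuRHep-/- but scattered widely in HFCF livers, at 9.27, 5.31 and 2.96 CPM (limma adjusted p = 0.0561). It passed without HFCF HuRHep-/- replicate 1 (log2 -1.42), without HFCF WT replicate 1 (-1.01) and with voom weights (-0.99, limma adjusted p = 0.0415).

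Acat2, Aacs and Ggps1, which stand at the entry and at a side branch of the pathway, did not pass in either genotype. Acat2, the cytosolic thiolase, was at 67.1, 73.5 and 94.9 CPM in chow WT and at 86.9, 68.1 and 72.9 in HFCF WT (log2 -0.04, 95% interval -0.38 to 0.30). Ggps1, which makes geranylgeranyl diphosphate for protein prenylation, differed by -0.10 in WT (95% interval -0.37 to 0.18) and -0.14 in HuRHep-/- (-0.42 to 0.13) on the log2 scale. Aacs, which activates the ketone body acetoacetate in the cytosol, was at 26.4, 32.3 and 63.3 CPM in chow HuRHep-/- and at 67.6, 56.1 and 48.8 in HFCF HuRHep-/-. That is an overlapping difference of 0.59 upward (95% interval -0.07 to 1.26), which passed when chow HuRHep-/- replicate 3 was left out (0.96, limma adjusted p = 0.0171).

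**Figure D2:**
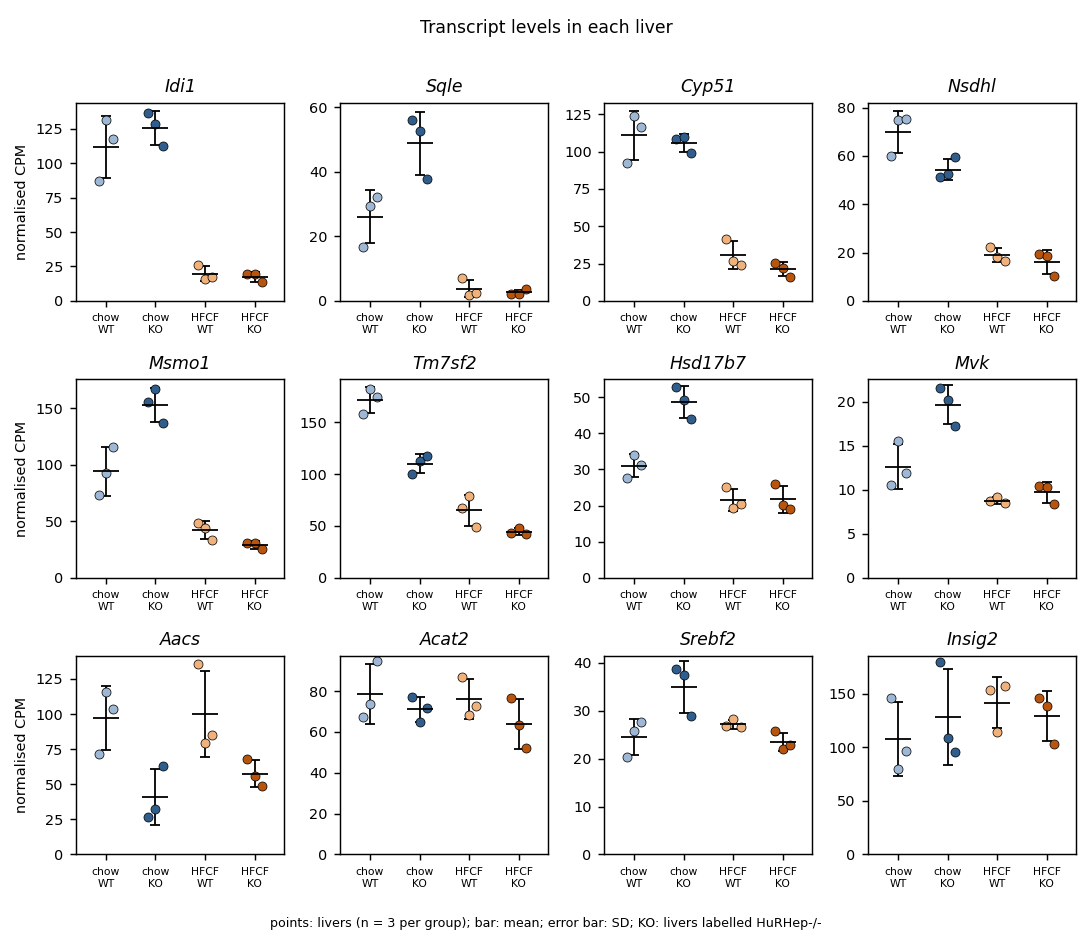
Normalised CPM (y axis) of 12 genes in each of the 12 livers by group (x axis; KO stands for livers labelled HuRHep-/-); points are livers, horizontal bars the means of 3 and error bars the SD. Idi1, Sqle, Cyp51 and Nsdhl drop in HFCF livers of both labels, Msmo1 lies higher in KO than in WT on chow and lower on HFCF, and Acat2 and Insig2 overlap throughout.

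Sqle, squalene epoxidase, which oxidises squalene and is a rate-limiting step late in the pathway, had the largest fall of the 28 genes in both genotypes. It was at 16.8, 29.3 and 32.2 CPM in chow WT and at 6.97, 1.95 and 2.54 in HFCF WT, 7.67-fold lower (log2 -2.94, SE 0.41, limma adjusted p = 0.000984). In livers labelled HuRHep-/- it was at 56.1, 52.6 and 37.7 on chow and at 2.09, 2.26 and 3.58 on HFCF, 18.6-fold lower (log2 -4.22, SE 0.41, limma adjusted p = 9.09e-05). HFCF WT replicate 1 stood above the other HFCF livers for Sqle, as for Hmgcs1, Idi1, Cyp51 and Aacs. Fdft1, which makes squalene, fell 1.83-fold in livers labelled HuRHep-/- (limma adjusted p = 0.000742) and differed by -0.34 on the log2 scale in WT (limma adjusted p = 0.0788). Lss, which closes the ring to lanosterol, was 1.41-fold lower in HuRHep-/- (limma adjusted p = 0.0290) and 1.31-fold lower in WT (limma adjusted p = 0.0952), both short of the limits.

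All 8 enzymes after lanosterol had estimates below 0 in both genotypes, with 4 lowered in WT and 6 in livers labelled HuRHep-/-. Cyp51, which removes the 14-methyl group of lanosterol, was at 92.4, 124 and 116 CPM in chow WT and at 41.3, 26.9 and 24.1 in HFCF WT. Under the HuRHep-/- label it went from 109, 109.5 and 98.8 to 25.7, 22.3 and 16.3. The falls were 3.68-fold in WT and 5.02-fold in HuRHep-/- (limma adjusted p = 0.000250 and 5.77e-05). Nsdhl, which takes part in removing the methyl groups at carbon 4, was at 60.0, 74.9 and 75.2 CPM in chow WT and at 22.1, 18.2 and 16.5 in HFCF WT. On the HuRHep-/- label it was at 51.2, 52.4 and 59.4 on chow and at 19.3, 18.4 and 10.4 on HFCF. Its fall was 3.71-fold in WT and 3.50-fold in HuRHep-/-. Tm7sf2, a sterol reductase, fell 2.69-fold and 2.49-fold. For Nsdhl and Tm7sf2 the test of the difference between genotypes gave 0.08 (95% interval -0.54 to 0.71) and 0.11 (-0.32 to 0.54) on the log2 scale.

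Msmo1, the methyl sterol oxidase of the same step as Nsdhl, was at 73.3, 93.1 and 116 CPM in chow WT and at 48.7, 44.4 and 33.4 in HFCF WT, 2.22-fold lower (limma adjusted p = 0.00126). It was at 155, 167 and 137 in chow HuRHep-/- and at 30.9, 31.1 and 25.3 in HFCF HuRHep-/-, 5.27-fold lower (limma adjusted p = 2.78e-05). Hsd17b7, a reductase of the same complex, fell 2.25-fold in livers labelled HuRHep-/-, and was 1.45-fold lower in WT (limma adjusted p = 0.0152), just short of the fold limit. Leaving out chow WT replicate 1 (log2 -0.61) or HFCF WT replicate 1 (-0.64) brought it past the limit. Dhcr7, a reductase that acts at the end of the pathway, fell 1.91-fold in livers labelled HuRHep-/- and differed by -0.31 in WT (limma adjusted p = 0.193). Ebp and Sc5d, the highest of the genes per length, stayed short of the limits. Ebp was 1.45-fold lower in WT and 1.35-fold lower in HuRHep-/- (limma adjusted p = 0.00479 and 0.00770), and Sc5d 1.25-fold and 1.38-fold lower (0.0944 and 0.0178). Without HFCF WT replicate 2 Ebp passed in WT (log2 -0.67), and without HFCF HuRHep-/- replicate 1 Sc5d passed in HuRHep-/- (-0.59).

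Of the 5 genes of sterol sensing, 0 fell in WT and 2, Scap and Insig1, in livers labelled HuRHep-/-. Insig1, itself a target of SREBP2, was at 174, 136 and 208 CPM in chow WT and at 163, 126 and 90.6 in HFCF WT, with overlap. It was at 166, 169 and 168 in chow HuRHep-/- and at 114, 90.4 and 65.1 in HFCF HuRHep-/-, 1.92-fold lower (limma adjusted p = 0.00774). Insig2, the isoform known for not depending on SREBP2, did not pass (log2 0.43 in WT, 95% interval -0.13 to 1.00, and 0.05 in HuRHep-/-, -0.51 to 0.61). Scap was 1.40-fold lower in WT (limma adjusted p = 0.0189), where it passed without HFCF WT replicate 2 (log2 -0.67), and fell 1.65-fold in HuRHep-/-. Srebf2, the gene of SREBP2, was at 20.3, 25.7 and 27.6 CPM in chow WT and 26.7, 28.3 and 26.5 in HFCF WT. In livers labelled HuRHep-/- it was at 38.7, 37.5 and 28.8 on chow and at 25.7, 22.0 and 22.8 on HFCF. The log2 differences were 0.16 in WT and -0.57 in HuRHep-/-, of which the latter had a limma adjusted p of 0.00565 just short of the fold limit. It passed that limit without chow HuRHep-/- replicate 3 (-0.70), without HFCF HuRHep-/- replicate 1 (-0.63) and with no filter on low counts (-0.59). Mbtps1, the protease that makes the initial cut in SREBP2, differed by -0.01 in WT and by -0.27 in HuRHep-/- (limma adjusted p = 0.00927).

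Among the genes of sterol handling, Stard4, a carrier of cholesterol between membranes, fell in both genotypes. It was at 74.5, 107 and 99.6 CPM in chow WT and 61.8, 55.6 and 37.9 in HFCF WT (1.83-fold, limma adjusted p = 0.00844), and at 71.5, 94.9 and 96.5 in chow HuRHep-/- and 49.1, 45.0 and 37.9 in HFCF HuRHep-/- (1.98-fold, limma adjusted p = 0.00262). Mylip, a ubiquitin ligase induced by the sterol receptor LXR that limits sterol uptake, was 1.29-fold higher in WT and 1.34-fold higher in HuRHep-/-, and neither passed (limma adjusted p = 0.150 and 0.0762). Soat2, which esterifies cholesterol in hepatocytes, differed by -0.07 and -0.10 on the log2 scale, with intervals of -0.33 to 0.19 and -0.36 to 0.16.

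**Figure D3:**
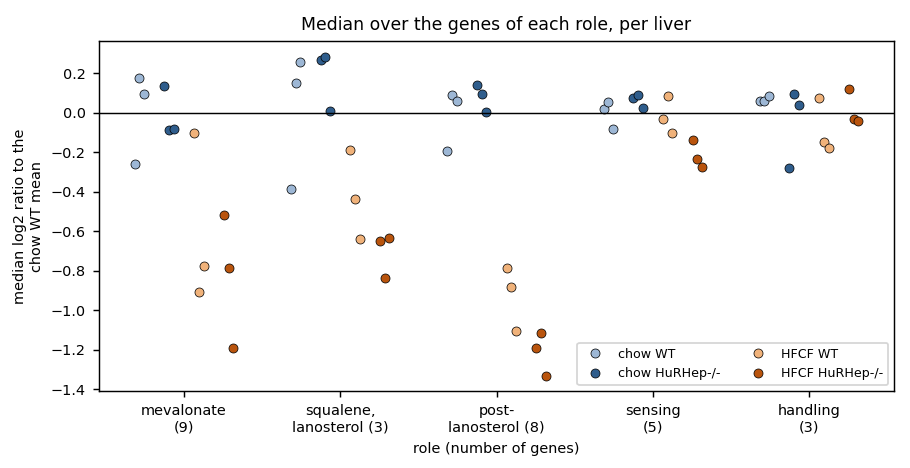
Median over the genes of each role (x axis) of the log2 ratio of a liver to the chow WT mean (y axis); each point is a liver, coloured by group, and the numbers of genes are in parentheses. Post-lanosterol enzymes separate the diets most, at -0.79 to -1.33 in the 6 HFCF livers and -0.19 to 0.14 in the 6 chow livers, and the sensing and handling genes lie between -0.28 and 0.12.

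By liver, the median log2 ratio of the 28 genes to the chow WT mean ran from -0.23 to 0.09 in chow WT and from -0.00 to 0.16 in chow HuRHep-/-. It ran from -0.68 to -0.18 in HFCF WT and from -0.74 to -0.52 in HFCF HuRHep-/-. HFCF WT replicate 1, at -0.18, was the single HFCF liver within the range of chow WT. Summed over the 20 enzymes, the normalised counts were 1639, 1971 and 2098 CPM in chow WT, 2023, 1944 and 1834 in chow HuRHep-/-, 1318, 1114 and 989.5 in HFCF WT and 1079, 1006 and 817 in HFCF HuRHep-/-. By role, the median log2 fold change with diet was -0.61 in WT and -1.01 in HuRHep-/- for the 9 early genes, -0.39 and -0.87 for the 3 of squalene and lanosterol, and -0.84 and -1.24 for the 8 after lanosterol. It was -0.01 and -0.57 for the 5 of sensing, and -0.07 and -0.10 for the 3 tested of handling.

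Lists of related genes outside the group were read beside it. Among 7 LXR targets, which respond to a surplus of sterols, 3 rose in WT and 4 in livers labelled HuRHep-/-, and 0 fell. Srebf1, the gene of the lipogenic factor SREBP1, rose by 1.73 in WT and 1.66 in HuRHep-/- on the log2 scale, Abcg1, a sterol exporter, by 1.40 and 1.58, and Abcg5, a transporter of sterols into bile, by 1.14 and 1.04. Of 10 genes of the branches that use isoprenoids for purposes other than sterols, 1 fell (Rabggtb, -0.59) and 1 rose (Fntb, 0.80) in WT, and 1 rose (Fntb, 0.67) in HuRHep-/-. Of 9 genes of sterol-dependent degradation and processing, 0 changed in WT and 1 fell in HuRHep-/- (Rnf139, -0.63). In these 3 lists 0 genes were called between the genotypes in either diet or for the difference between diets.

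Cell type markers moved with the diet as well. Of 5 hepatocyte markers 2 fell in each genotype, with a median of -0.71 in WT and -0.43 in HuRHep-/- on the log2 scale. Of 4 markers of lipid-associated macrophages (Trem2, Gpnmb, Cd9, Spp1), 2 rose in WT and 4 in HuRHep-/-. They summed to 45.1 to 83.1 CPM in chow WT, 60.6 to 88.2 in chow HuRHep-/-, 44.6 to 134 in HFCF WT and 166 to 288 in HFCF HuRHep-/-. Of 5 Kupffer cell markers 2 rose in each genotype, of 4 stellate cell markers 1 rose in WT and 4 in HuRHep-/-, and of 4 cholangiocyte markers 0 and 4. Of 4 lymphocyte markers 0 rose in WT and 2 in HuRHep-/-, and of 4 markers of sinusoidal endothelium 0 and 0. Cholangiocyte markers summed to 7.73 to 12.3, 6.4 to 11.5 and 7.81 to 11.6 CPM in chow WT, chow HuRHep-/- and HFCF WT, and to 17.2 to 26.2 in HFCF HuRHep-/-. In each of the 7 lists 0 markers were at 0 in all libraries. The part of these cell type differences in the fall of the pathway genes was not tested.

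The comparison of genotype labels within a diet asked whether the pathway was set differently at a given diet. On chow, 2 of the 28 genes, Msmo1 and Hsd17b7, were higher and 1, Tm7sf2, was lower in livers labelled HuRHep-/-, beside 1.32% higher and 0.961% lower among all 13526 genes tested. By adjusted p alone the higher genes were the same 2, against 2.28% of all genes. The chow HuRHep-/- livers lay above all WT livers for 7 genes and below all of them for 5, against 15.4% and 14.1% of all genes. At an unadjusted p under 0.05 there were 12 of the 28 genes, against 3184 of all 13526 genes tested. The median log2 fold change was 0.11, against 0.00 over all genes tested. Of the hepatocyte markers, whose sum did not overlap between the labels on chow, 0 of 5 were called. Kupffer cell markers (Clec4f, Vsig4, Adgre1, Cd68, Marco) summed to 76.6 to 94.8 CPM in chow WT and 105 to 148 in chow HuRHep-/-, also without overlap, and 0 of 5 were called. The part of either list in these differences was not tested.

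The 8 enzymes after lanosterol were split on chow. Msmo1 was 1.66-fold higher in livers labelled HuRHep-/- (153 ± 15.3 against 94.1 ± 21.4 CPM, SD, n = 3; limma adjusted p = 0.0471), and Hsd17b7 was 1.58-fold higher (48.7 ± 4.49 against 31.1 ± 3.17; limma adjusted p = 0.0194). Dhcr7 (1.48-fold) and Sc5d (1.18-fold) also lay above WT in every liver, with limma adjusted p of 0.0786 and 0.126. Tm7sf2 was 1.55-fold lower (110.3 ± 8.90 against 172 ± 12.5 CPM; limma adjusted p = 0.0124). Nsdhl (1.28-fold) and Ebp (1.21-fold) lay below WT in every liver, with limma adjusted p of 0.1003 and 0.0746. Cyp51 did not pass (log2 -0.05, 95% interval -0.31 to 0.21).

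Each of the 3 calls was lost when some of the libraries were left out one at a time, with the direction kept. Hsd17b7 was not called without chow WT replicate 1 (log2 0.58, limma adjusted p = 0.0595), WT replicate 3 (0.66, 0.0694), HuRHep-/- replicate 1 (0.59, 0.0683) or HuRHep-/- replicate 2 (0.65, 0.101). Msmo1 was called only when WT replicate 3 was the one left out, and without WT replicate 1, WT replicate 2 and HuRHep-/- replicates 1, 2 and 3 its log2 fold change was 0.56, 0.74, 0.71, 0.66 and 0.81 with limma adjusted p of 0.0915, 0.0770, 0.129, 0.174 and 0.0554. It was also lost with upper-quartile factors and with voom weights, with limma adjusted p of 0.0503 in both. Tm7sf2 was not called without WT replicate 3 (-0.62, 0.0580), HuRHep-/- replicate 1 (-0.57, 0.0434, short of the fold limit) or HuRHep-/- replicate 2 (-0.65, 0.0656).

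Among the other roles on chow, the largest estimate was that of Aacs, at 71.5, 116 and 104 CPM in WT and 26.4, 32.3 and 63.3 in livers labelled HuRHep-/-. All 3 lay below all WT livers, 2.50-fold by the fit (log2 -1.32, SE 0.32), and the limma adjusted p was 0.0592. It passed without HuRHep-/- replicate 3, the nearest to WT (-1.69, limma adjusted p = 0.0152) and in a fit on all 12 libraries (-1.33, 0.0263). Pmvk was 1.41-fold lower without overlap (limma adjusted p = 0.0774). Sqle was 1.92-fold higher (limma adjusted p = 0.0814) and Mvk 1.58-fold higher (limma adjusted p = 0.0571), both without overlap. Mvk passed without WT replicate 2 (log2 0.82) and in the fit on all 12 libraries (0.65, limma adjusted p = 0.0214), and Dhcr7 without WT replicate 2 (0.72). Srebf2 was 1.43-fold higher without overlap (limma adjusted p = 0.0930) and passed without HuRHep-/- replicate 3 (0.65), as did Hmgcs1 (0.66), which otherwise overlapped (log2 0.43, limma adjusted p = 0.243). With 3 livers against 3, an exact permutation test of a single gene cannot give a p below 0.1.

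**Figure D4:**
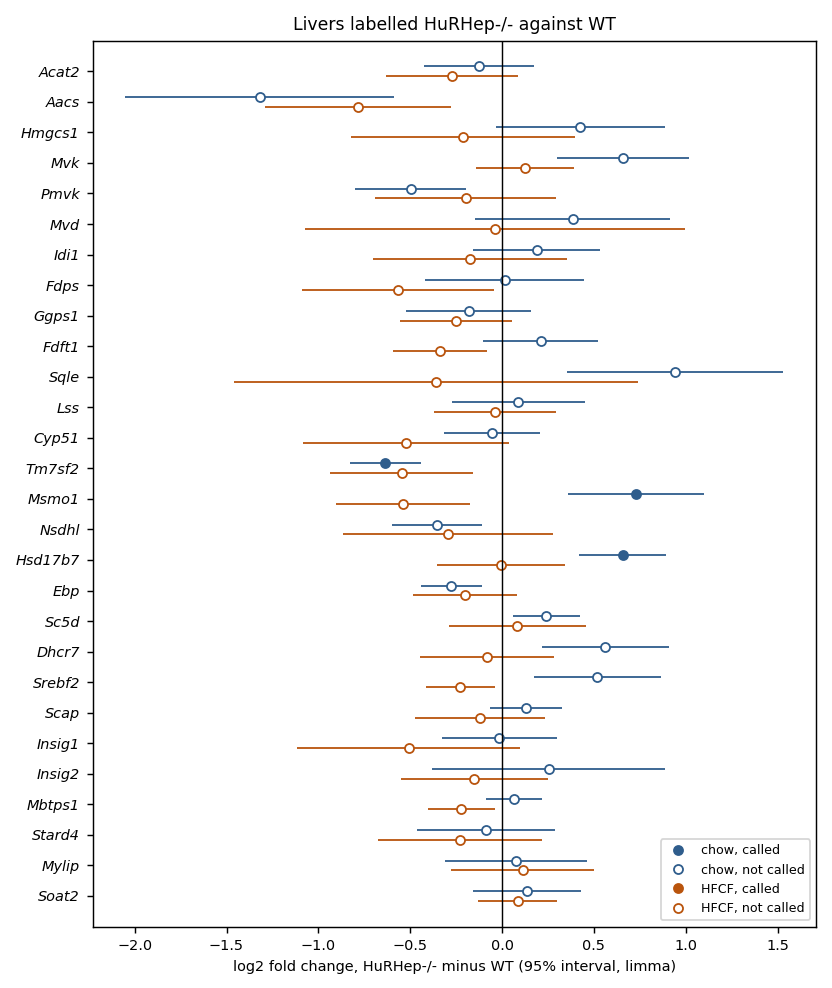
Log2 fold change between livers labelled HuRHep-/- and WT (x axis, HuRHep-/- minus WT) of the 28 tested genes (y axis) on chow (blue) and HFCF (orange), with 95% intervals from limma; filled points passed both limits. The 3 filled points, Tm7sf2, Msmo1 and Hsd17b7, are all on chow, and 24 of the 28 orange points lie left of 0.

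On HFCF, 0 of the 28 genes passed by limma in either direction, where 3.71% of all 14295 genes did. At an unadjusted p under 0.05 there were 7 of the 28 genes, against 4220 of all 14295 genes. By limma with voom weights 0 of the 28 were called, against 579 of all 14295 genes. Estimates were below 0 for 24 of 28 genes, with a median log2 fold change of -0.22 against 0.00 over all genes tested. In 8 genes all livers labelled HuRHep-/- lay below all WT livers, and in 0 above, against 19.2% and 17.6% of all genes. Those 8 were Aacs, Fdps, Ggps1, Fdft1, Tm7sf2, Msmo1, Srebf2 and Mbtps1.

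Aacs had the largest estimate on HFCF too (135, 79.5 and 84.9 CPM in WT against 67.6, 56.1 and 48.8; log2 -0.78, SE 0.22, limma adjusted p = 0.0706). Tm7sf2 was at 66.9, 78.8 and 49.4 CPM in WT and at 42.7, 48.3 and 41.8 in livers labelled HuRHep-/- (log2 -0.55, limma adjusted p = 0.0870). Msmo1 was at 48.7, 44.4 and 33.4 in WT and at 30.9, 31.1 and 25.3 in livers labelled HuRHep-/- (log2 -0.54, limma adjusted p = 0.0779). WT replicate 3 was the WT liver nearest to the other group for both, and without it Tm7sf2 (-0.73, limma adjusted p = 0.0201) and Msmo1 (-0.69, limma adjusted p = 0.0299) passed. Idi1, Nsdhl and Sqle, which had fallen strongly with the diet, differed by -0.17, -0.30 and -0.36 between the genotypes, with intervals that held 0. For Sqle the interval was wide, from -1.46 to 0.74. Cholangiocyte and macrophage markers, Krt19 (log2 1.32), Krt7 (1.40) and Cd9 (1.06), were higher in these livers labelled HuRHep-/-. Of 5 hepatocyte and 4 lymphocyte markers 0 were called, but their sums did not overlap between the labels on HFCF: that of the hepatocyte markers was lower in HuRHep-/-, and that of the lymphocyte markers was at most 2.59 CPM in WT and 3.47 to 4.30 in HuRHep-/-. The part of these markers in the estimates below 0 was not tested.

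The test of whether the genotype effect differed between the diets, which equally tests whether the fall with diet differed between genotypes, was passed by 0 of the 28 genes, and by 0% of all 14535 genes. At an unadjusted p under 0.05 there were 8 of the 28 genes, against 2088 of all 14535 genes. With voom weights 0 of the 28 and 1 of all 14535 genes passed. The 7 genes lowered in livers labelled HuRHep-/- and not in WT are therefore not shown to differ in their response. Msmo1, higher in every chow liver and lower in every HFCF liver labelled HuRHep-/- than in WT, had the largest difference relative to its error (log2 -1.25, SE 0.24, 95% interval -1.78 to -0.72, limma adjusted p = 0.102). It passed without HFCF WT replicate 3 (-1.41, limma adjusted p = 0.0374), where 39 of all genes passed as well. Srebf2 differed in the same direction (-0.72, SE 0.18, limma adjusted p = 0.153), as did Hsd17b7 (-0.64, SE 0.19, 0.203) and Fdft1 (-0.52, SE 0.19, 0.259). So did Mbtps1 (-0.27, SE 0.097, 0.263), Dhcr7 (-0.62, SE 0.23, 0.270), Mvk (-0.51, SE 0.20, 0.288) and Sqle (-1.28, SE 0.58, 0.345). Estimates were below 0 for 22 of 28 genes, with a median of -0.30 against 0.00 over all genes. Marker lists had medians of 1.425 (cholangiocytes), 1.12 (lymphocytes), 0.67 (stellate cells) and 0.19 (lipid-associated macrophages) in this test. Those of Kupffer cells, sinusoidal endothelium and hepatocytes were 0.11, 0.08 and 0.03. In each list 0 markers were called, and their part in the estimates below 0 was not tested.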

How the data were processed

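The members and lists were chosen with earlier results of these data known. Reads were aligned by the authors with CLC Genomics Workbench, strand included, against the RefSeq genome GRCm38.p6, and raw counts per gene were deposited as a table for each diet, without normalization. Separators within the numbers (21506 values for chow, 23123 for HFCF) make the tables text, so their unit was entered as "other" and no count model was run. Libraries came from a stranded kit, with RNA integrity numbers above 6.0 per the labels. Chow and HFCF libraries were put on 1 scale here.

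A gene entered if at least 3 libraries reached what 10 counts are in the median library and its total was at least 15. Log2 CPM with TMM factors (trims of 0.3 and 0.05) and a pseudocount of 0.5 were tested by limma 3.58.1 with a variance trend in R 4.3.3. Genotype was tested on the 6 libraries of a diet, and diet and the difference on all 12. Fold changes are on the log2 (CPM with pseudocount) scale, and printed CPM values are normalised by the 12-library factors. All 29 members and Elavl1 were to be named, and of other lists at most the 3 called genes with the largest change; markers named in the HFCF genotype comparison are the called ones. Nothing says more of the source of the replicates than their numbers, so p-values measure the spread between these livers. The fits were tested on simulated data. Exon lengths, overlaps and shared words came from the GENCODE annotation of GRCm38. The analysis was repeated with RLE or upper-quartile factors, with other filters, with a pseudocount of 2, with voom weights, with the replicate number as a block, on other sets of libraries, by adjusted p alone, and without each library in turn.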

Additional observations from a re-analysis of the deposited data

How the results depend on the processing

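The number of members lowered by the diet was 9 in WT and 16 to 17 in livers labelled HuRHep-/- under other factors, filters, pseudocount, weights, block and sets of libraries, and 13 and 21 by adjusted p alone. Leaving out each library gave 8 to 11 in WT and 16 to 19 in HuRHep-/-, with 0 to 1 higher in HuRHep-/-. Of the genotype calls on chow, Tm7sf2 and Hsd17b7 passed under each other setting with all livers of that diet, Msmo1 did not, and each was lost without some libraries. The 1 gene called lower became 2 with the replicate block and 2 with all 12 libraries, and 0 to 2 when each library was left out. The 2 genes called higher became 1 with upper-quartile factors, 1 with voom weights, 1 with the replicate block and 3 with all 12 libraries, and 0 to 3 when each library was left out. Over all genes, 309 calls on chow became 97 and 9 without chow HuRHep-/- replicates 1 and 2, and 115 and 82 without chow WT replicates 1 and 3. On HFCF the 0 members called lower became 1 with the replicate block and 0 to 2 without each library, and 530 calls over all genes became 28, 33 and 101 without HFCF HuRHep-/- replicates 1, 2 and 3, and 43 and 881 without HFCF WT replicates 1 and 3. For the difference between diets, 0 members became 0 to 1 without each library, and 0 calls over all genes became 0 to 2, or 39 without HFCF WT replicate 3. Over all genes, 965 calls higher with the diet in WT became 620 on the 6 libraries of the genotype. The cause was not tested.

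Signs turned for some log2 estimates, and none of those named here was called by the reported test. For the diet in WT, Acat2 turned with upper-quartile factors (0.0097), and Mbtps1 with the same factors (0.042), with at least 10 counts in every library (0.0122) and with the 6 libraries of the genotype (0.0005). Leaving out each library took Acat2 from -0.1443 to 0.1056, Aacs from -0.2072 to 0.1765, Mbtps1 from -0.0655 to 0.04 and Soat2 from -0.2078 to 0.0305 for the diet in WT, and Insig2 from -0.1312 to 0.3169 for the diet in HuRHep-/-. It took Cyp51 from -0.1813 to 0.0364 between genotypes on chow, and Idi1 from -0.3174 to 0.0614 and Sqle from -0.7291 to 0.1992 on HFCF. For the difference between diets it took Tm7sf2 from -0.0744 to 0.2623 and Nsdhl from -0.0758 to 0.3663. Over all 28 genes and comparisons, 10 of 1092 estimates turned under other settings and 58 of 1344 without a library.

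The replicate numbers were not taken to pair the livers, since not every same-numbered pair correlated above 0.1: between WT and HuRHep-/- livers of the same number, deviations from the group means correlated at -0.03, 0.11 and -0.00 on chow and at 0.09, 0.19 and 0.09 on HFCF. On HFCF each WT liver correlated best with the HuRHep-/- liver of its own number, on chow not. The replicate block moved the calls over all genes from 309 to 232 on chow and from 530 to 779 on HFCF, and changed the calls of Aacs on chow (limma adjusted p = 0.0356) and HFCF (0.0235), Msmo1 on chow (0.0669) and Mvd for the diet in HuRHep-/- (0.0464).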
